A study of Mus musculus with 6 samples.

Results

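Translation initiation factors are the proteins that bring a ribosome to the start codon of a messenger RNA. Here they are the genes of the count table whose symbol begins with Eif, without the eIF4E-binding proteins (Eif4ebp), the eIF2 kinases (Eif2ak), the Eif1ad genes, the Y-linked Eif2s3y and any name that contains "-ps" (pseudogenes). This rule gave 49 of the 49993 genes in the table, and no measured value entered it. RNA-seq libraries of mouse embryos were compared between 3 libraries of in vivo development and 3 of in vitro culture, in a study of genes that shorten telomeres in culture. The mothers in both groups were superovulated, with pregnant mare serum gonadotrophin (PMSG, 10 IU) and 48 h afterwards with human chorionic gonadotrophin (hCG, 10 IU), and then mated. In vivo embryos were flushed from the uterus at day 3.5 as blastocysts. Embryos for culture were removed from the oviduct as fertilized zygotes 19 to 21 h after hCG and grown to blastocysts in the potassium-enriched medium KSOM at 37 °C and 5% CO2. Neither strain nor age of the mice is stated in the sources used here. The series' design text speaks of blastocysts, whereas each sample is described as 1 inner cell mass, with embryonic stem cell in its cell type field. Whether the 3 libraries of each group trace to different mothers is not stated, and p-values here cover only the spread among the libraries, part of which may be technical.

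Initiation begins when eIF2, charged with GTP and the initiator tRNA, joins eIF1, eIF1A, eIF3 and eIF5 on the small ribosomal subunit. The cap-binding protein eIF4E, the scaffold eIF4G and the helicase eIF4A bring this complex to the capped end of an mRNA, and it scans to the start codon, where eIF2 hydrolyses its GTP and eIF5B joins the large subunit. The guanine nucleotide exchange factor eIF2B then recharges eIF2, a step that is blocked when stress kinases phosphorylate the alpha subunit of eIF2. In the early embryo, protein synthesis passes from stored maternal mRNAs to embryonic ones, and Eif1a is a common marker of that switch in the mouse.

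Library totals ran from 6918288 to 17643429 counts, and the ribosomal RNA gene Rn18s-rs5 held 16.7% of the counts of in vivo replicate 1, 22.2% of those of in vivo replicate 2 and 35.8% to 41.7% of the others. Levels are given as CPM, counts scaled to a common library size. Rank correlations of log2 CPM between libraries ran from 0.717 to 0.942, the highest between in vivo replicates 1 and 2. The libraries did not sort by group throughout. In vivo replicates 1 and 2 correlated at 0.786 and 0.793 with in vivo replicate 3, and at 0.873 and 0.857 with in vitro replicate 2. Each epiblast and each trophectoderm marker on the lists was counted in every library. The trophectoderm markers summed to 557 to 1182 CPM in vivo and 887 to 1541 CPM in vitro, which goes against a label of inner cell mass alone. The epiblast markers summed to 363 to 431 CPM in vivo and 349 to 644 CPM in vitro. Primitive endoderm markers came to 169, 179 and 299 CPM in vivo, whereas in vitro they came to 450, 372 and 291 CPM. For epiblast, trophectoderm and primitive endoderm markers alike, 2 of the in vitro libraries were above all in vivo ones. These were in vitro replicates 2 and 3 for trophectoderm (1541 and 1403 CPM) and in vitro replicates 1 and 2 for epiblast (644 and 445 CPM) and primitive endoderm. The remaining in vitro library was within the in vivo range for trophectoderm and primitive endoderm and below it for epiblast. The part of these shifts in the results was not tested. Uterine markers summed to 8.58 to 34.7 CPM in vivo and 9.67 to 44.1 CPM in vitro, with Ltf and Pgr at 0 counts in all libraries. Markers of cumulus cells, blood and oocytes each summed to at most 4.53 CPM in any library, with Amh, Fshr, Cyp19a1, Has2, Hbb-bs, Ptprc and Bmp15 at 0 counts in all libraries. In vitro replicate 2 had 1 count over the Y-linked genes Eif2s3y, Ddx3y, Uty and Kdm5d and 7494 counts of Xist, while each other library had 1139 to 1693 counts over those 4 genes. In material of this kind, fewer cells of a type and less RNA per cell cannot be told apart.

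Of the 49 initiation factor genes, 46 had enough counts to be tested. Their levels lay close together between the libraries of a group. The median SD of log2 CPM within a group was 0.27 in vivo and 0.33 in vitro over the 46 genes, and 0.65 and 0.75 over all 14301 genes tested. The initiation factor genes were also more abundant than most (a median of 60.1 to 85.5 CPM per library, against 11.8 to 12.2 CPM over all genes), and the part of abundance in the smaller spread was not tested. They made up 0.812% to 1.04% of the counts left after Rn18s-rs5 is taken out, with in vivo libraries at 0.842%, 0.859% and 0.947% and in vitro libraries at 0.855%, 1.04% and 0.812%, so the groups overlapped.

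Between in vitro and in vivo embryos no initiation factor gene passed edgeR's quasi-likelihood test. The smallest adjusted p over all genes was 0.306, and it was shared by Eif2b1. Over all genes tested the same test called 0%. At an unadjusted p below 0.05, 12 of the 46 genes stood out, 4 higher and 8 lower in vitro, beside 10.2% of all genes (5.11% higher and 5.08% lower). The groups did not overlap in 16 genes, 7 higher and 9 lower in vitro, beside 19.3% of all genes (9.27% higher and 10% lower). DESeq2 called 4 of the 48 genes to which it gave an adjusted p, beside 2.82% of all genes: Eif2s3x was higher in vitro (1.55% of all genes were called higher), and Eif2b1, Eif5a and Eif4e1b were lower (1.27%). Eif4e1b reached the level of the filter in the in vivo group alone, so its difference follows in part from the filter. Without it the counts were 3 DESeq2 calls, 7 lower genes with an unadjusted p below 0.05 and 8 lower genes without overlap. Leaving out in vivo replicate 2 brought the DESeq2 calls to 0 (152 over all genes, against 459 with every library). Leaving out in vivo replicate 1 or in vitro replicate 1 brought them to 1 (294 and 255 over all genes). Without in vitro replicate 3 there were 2 (382 over all genes). Without in vitro replicate 2 there were 3 (855) and without in vivo replicate 3 there were 4 (907). Limma-voom with quality weights called 1 gene, Eif5a, beside 0.713% of all genes. When edgeR was run on unfiltered counts, Eif2b1 and Eif5a passed, beside 1.4% of all genes.

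The split of the genes by direction moved with the scaling, as it did over all genes. With the usual TMM scaling (trimmed mean of M values), 22 were higher and 24 lower in vitro (47.8% higher, against 49.8% of all genes), with a median log2 fold change of -0.05, against -0.01 for all genes. Scaled by library totals alone, which moves the median of all genes to -0.31, 15 were higher and 31 lower (32.6% higher, against 36.1% of all genes) with a median of -0.35. Library totals left 2 genes higher without overlap (5.16% of all genes) and 8 lower (11% of all genes): Eif2a, Eif3j1, Eif4a2, Eif4b, Eif4h, Eif3g, Eif4e2 and Eif5a then overlapped, and Eif3i and Eif5 no longer did. Limma-voom put 26 higher and 20 lower (56.5% higher, against 46.3% of all genes). Its median log2 fold change was 0.11, against -0.09 for all genes. The plot of fold changes by role shows genes on both sides of 0 in each of the 7 roles.

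**Figure D1:**
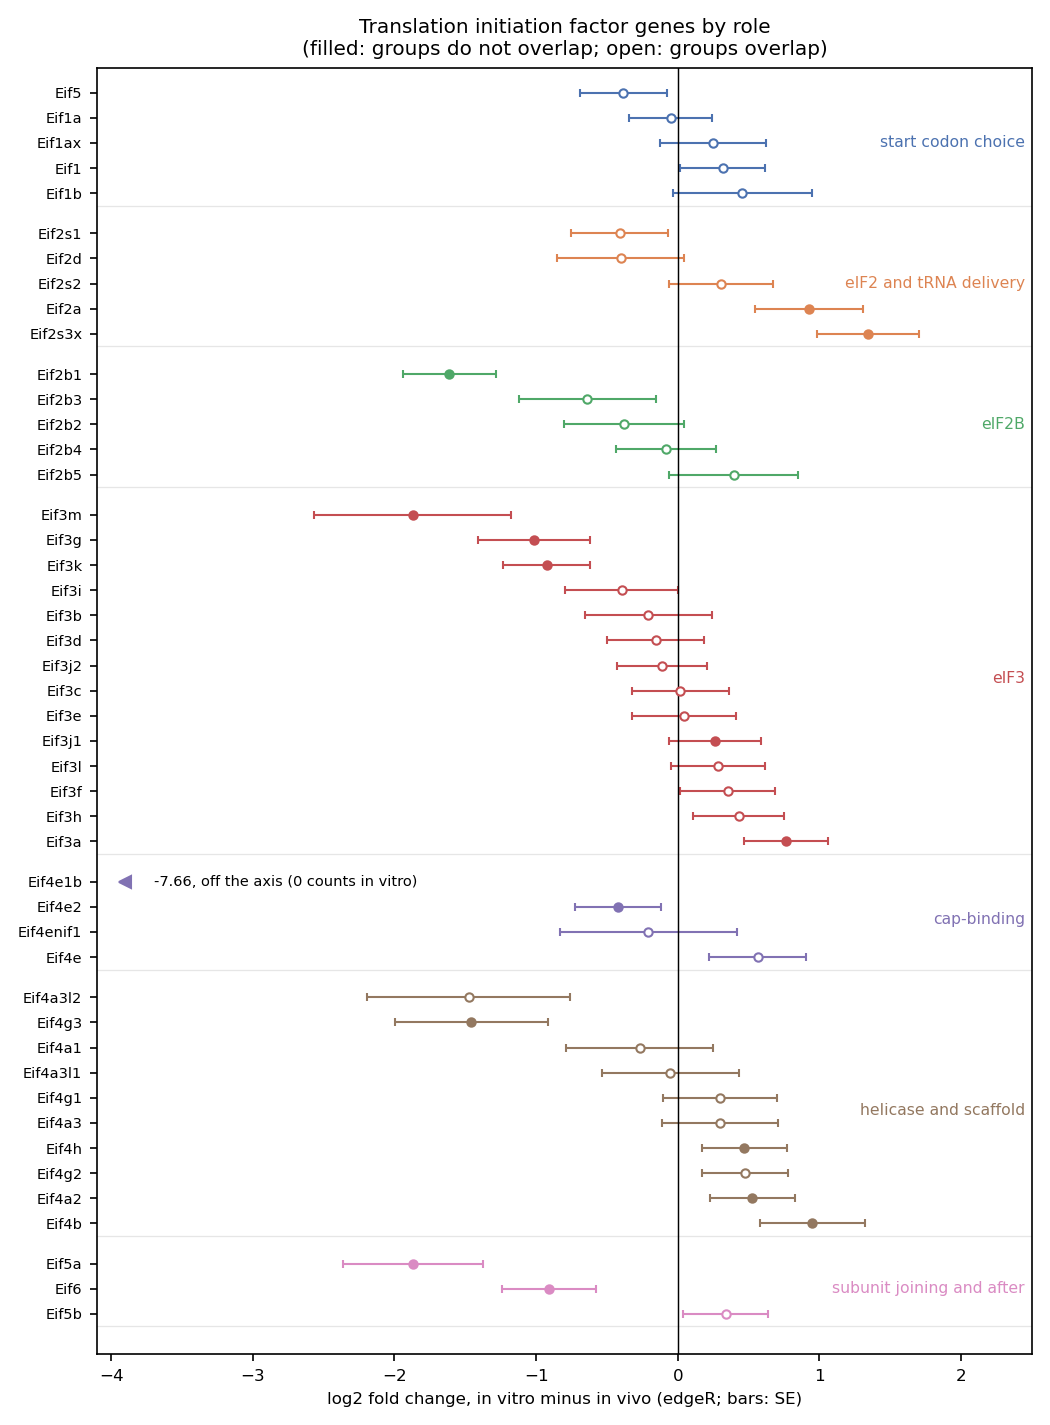
The x axis is edgeR's log2 fold change (positive where in vitro is higher), with the SE as bars, and the y axis lists the 46 initiation factor genes tested by role; filled points are genes whose 3 in vivo and 3 in vitro libraries do not overlap. Each role has genes on both sides of 0, from Eif3m and Eif5a at -1.87 to Eif2s3x at 1.34, and Eif4e1b, with 0 counts in vitro, lies off the axis.

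Of the 5 genes that choose the start codon, 3 were higher and 2 lower in vitro (1 and 4 with library totals), and with TMM scaling the groups of each overlapped. Eif1, which keeps the scanning complex open until the start codon is found, had 158, 138 and 120.1 CPM in in vivo replicates 1 to 3 and 197, 139 and 181 CPM in vitro. Its groups overlapped, and its log2 fold change of 0.32 ± 0.30 (SE) turned to -0.063 with library totals and to -0.15 when its copies are added. Eif1a, the autosomal gene for eIF1A, had 239, 165 and 209 CPM in vivo, and in vitro it had 213, 168 and 211 CPM, nearly the same range. Its X-linked counterpart Eif1ax had 42.1, 45.4 and 72.3 CPM in vivo, against in vitro levels of 78.2, 45.2 and 66.5 CPM, and its log2 fold change of 0.25 ± 0.38 became -0.026 with library totals. Per kilobase of exon Eif1ax made up 14.9% ± 4.13 (SD, n = 3) of the 2 genes in vivo and 17.4% ± 2.22 in vitro. Eif5, whose protein makes eIF2 hydrolyse its GTP, had 191, 188 and 229 CPM in vivo, compared with 147, 119.9 and 199 CPM in vitro. It had the smallest p in this role, with a log2 fold change of -0.38 ± 0.31 and an edgeR adjusted p of 0.719. Eif1b, a close relative of Eif1, had 15.8, 18.2 and 10.3 CPM in vivo, and in vitro it had 20.5, 15.7 and 24.6 CPM, with overlap (log2 fold change 0.46 ± 0.49).

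Of the 3 eIF2 subunit genes, Eif2s3x was higher in vitro without overlap and the other 2 overlapped. Eif2s2, for the beta subunit that binds eIF5 and mRNA, was the most abundant initiation factor gene, with 536 CPM per kilobase over all libraries. It had 754, 1058 and 1804 CPM in vivo, and in vitro it had 1644, 1602 and 1221 CPM, so in vivo replicate 1 was lowest, in vivo replicate 3 highest and the groups overlapped. Eif2s1, for the alpha subunit that stress kinases phosphorylate, had 128, 143 and 149.7 CPM in vivo, against in vitro levels of 75.7, 90.1 and 150.2 CPM, with in vitro replicate 3 level with the highest in vivo library (log2 fold change -0.41 ± 0.34). Eif2s3x (chrX:94188709-94212651, minus strand, GRCm38), for the gamma subunit that holds GTP and the initiator tRNA, had 46.4, 53.1 and 54.4 CPM in vivo, compared with 159, 152 and 79.1 CPM in vitro. All in vitro libraries were above all in vivo ones, and in vitro replicate 3 was the nearest to them. Its log2 fold change was 1.34 ± 0.36, with an unadjusted p of 0.00443 and an adjusted p of 0.327 in edgeR, and 0.0496 in DESeq2. DESeq2's adjusted p was 0.203 and 0.229 when in vivo replicate 1 or 2 was left out, 0.239 when in vitro replicate 1 was left out, and 0.129 when in vitro replicate 2, the library without Y-linked counts, was left out.

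The Y chromosome carries a second gene for the gamma subunit, Eif2s3y, which lies outside the rule above and was looked at after the values were seen. Eif2s3y was counted 540, 410 and 449 times in vivo, against 299, 0 and 170 times in vitro. The sum of Eif2s3x and Eif2s3y was 88.7, 85.9 and 86.7 CPM in vivo, and in vitro it was 211, 152 and 101 CPM, still without overlap between groups. The in vivo libraries differed by little (87.1 ± 1.43 CPM, SD, n = 3), and the in vitro libraries by far more (155 ± 55.0 CPM).

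Outside the eIF2 trimer, Eif2a encodes a separate single-chain factor that can deliver the initiator tRNA. It had 32.9, 33.7 and 24.4 CPM in vivo, against in vitro levels of 76.2, 40.0 and 56.9 CPM, without overlap (log2 fold change 0.93 ± 0.38, edgeR unadjusted p = 0.0368, adjusted p = 0.461). It shares 64 exonic bases with Serp1 on the other strand, and the library kit does not mark strand. Eif2d, another tRNA-delivery factor, had 21.0 to 55.6 CPM in vivo and 22.7 to 31.4 CPM in vitro, with overlap.

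Of the 5 eIF2B subunits, 4 were lower and 1 higher in vitro, and the groups of Eif2b1 did not overlap while those of the other 4 did. Eif2b1 (chr5:124570214-124579131, minus strand), for the alpha subunit, part of the regulatory set that binds phosphorylated eIF2, had 80.7, 97.2 and 114 CPM in vivo, compared with 37.2, 27.9 and 30.5 CPM in vitro. Every in vitro library had less than the lowest in vivo library by a wide margin, and neither near-identical copies nor overlapping exons of other genes were found for it. Its log2 fold change of -1.61 ± 0.33 had the smallest p of the initiation factor genes (unadjusted p = 0.000802, adjusted p = 0.306 in edgeR, 0.00355 in DESeq2). The DESeq2 adjusted p was 0.0785 without in vivo replicate 2 and 0.00984 to 0.0242 without any other library. Across the alternatives run its log2 fold change ran from -1.90 to -1.48. The catalytic subunit gene Eif2b5 had 64.1, 48.6 and 101 CPM in vivo, and in vitro it had 133, 103 and 45.1 CPM, with overlap (log2 fold change 0.39 ± 0.46). Eif2b2, Eif2b3 and Eif2b4 had log2 fold changes of -0.38 ± 0.42, -0.64 ± 0.48 and -0.08 ± 0.35, all with overlap.

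Because the subunits share a complex, their balance within a library was computed per kilobase, which no scaling between libraries can move. This ratio was chosen after the values were seen and carries no test. Eif2b1 made up 34.0%, 37.0% and 37.6% of the summed levels of the 5 subunits in vivo and 14.7%, 12.8% and 20.4% in vitro. The groups lay far apart in this share, while the summed levels themselves (97.2, 108 and 125 CPM per kilobase in vivo, 104, 89.2 and 61.2 CPM per kilobase in vitro) overlapped.

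The complex eIF3 is the largest initiation factor, a scaffold on the small subunit that binds the other factors and the mRNA. Of its 14 genes, all tested, 7 were higher and 7 lower in vitro (3 and 11 with library totals), and 4 had an unadjusted p below 0.05, beside 10.2% of all genes. Eif3k (chr7:28971372-28981890, minus strand), for a peripheral subunit, had 108, 106 and 79.2 CPM in vivo, against in vitro levels of 49.2, 53.0 and 52.0 CPM. The in vitro libraries lay within a few CPM of each other and below all in vivo ones (log2 fold change -0.93 ± 0.31, edgeR unadjusted p = 0.0144, adjusted p = 0.398). Eif3g, for the RNA-binding subunit that sits near the mRNA entry side, had 74.7, 85.3 and 52.3 CPM in vivo, compared with 23.7, 49.2 and 31.8 CPM in vitro. Its groups did not overlap, though in vivo replicate 3 and in vitro replicate 2 were close (log2 fold change -1.02 ± 0.40, edgeR unadjusted p = 0.0302, adjusted p = 0.442). Eif3a (chr19:60761116-60790693, minus strand), for the largest core subunit, went the other way, with 203, 182 and 238 CPM in vivo, and in vitro it had 425, 278 and 354 CPM and no overlap (log2 fold change 0.76 ± 0.30, edgeR unadjusted p = 0.0287, adjusted p = 0.440).

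Eif3j1, for the loosely bound subunit near the decoding site, had 43.5, 38.2 and 38.0 CPM in vivo, against in vitro levels of 45.7, 50.3 and 47.4 CPM. These groups did not overlap, but the log2 fold change was within 1 SE of 0 (0.26 ± 0.32) and was -0.066 with library totals. Eif3f, a subunit of the core, had 95.7, 82.8 and 146 CPM in vivo, compared with 131, 118 and 166 CPM in vitro, and Eif3l, the partner of Eif3k, had 124, 110.2 and 114 CPM in vivo, and in vitro it had 199, 118 and 106 CPM. Both overlapped, and the log2 fold change of Eif3l (0.28 ± 0.33) was -0.068 with library totals and -0.040 without in vitro replicate 1. Eif3b, Eif3c, Eif3d, Eif3e, Eif3h, Eif3i and Eif3j2 had log2 fold changes between -0.40 and 0.43, each with overlap.

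The order of the eIF3 genes by level differed between the groups. Per kilobase, with pseudogene copies left out, Eif3k was the highest of the 14 genes in vivo (79.7 ± 13.1 CPM per kilobase, SD, n = 3). It was the sixth in vitro (41.9 ± 1.61), where Eif3f was the highest (91.8 ± 16.6). Neighbours in this order mostly did not differ beyond their SD. In vivo, 149 ± 19.0 CPM per kilobase were assigned to Gm7658, a copy of Eif3m, and 94.4 ± 31.6 to Eif3s6-ps2, a copy of Eif3e. In vitro these copies had 81.6 ± 7.06 and 80.5 ± 27.4. An order with copies added was not computed. The ratio of Eif3a to Eif3k per kilobase was 0.446, 0.407 and 0.711 in vivo and 2.05, 1.24 and 1.61 in vitro, and that of Eif3k to its partner Eif3l was 1.34, 1.49 and 1.08 in vivo and 0.382, 0.693 and 0.755 in vitro. Neither of these ratios overlapped between the groups, and both were chosen after the values were seen. The ratio of Eif3a to Eif3c was 1.37, 1.72 and 2.47 in vivo and 3.01, 2.34 and 3.74 in vitro. That of Eif3g to Eif3i was 1.89, 2.01 and 0.875 in vivo and 0.994, 1.48 and 0.628 in vitro, and both of these overlapped. The summed level of the 14 genes was 608 ± 49.9 CPM per kilobase in vivo and 588 ± 35.4 in vitro, a difference smaller than the SD of either group. This sum also leaves out the pseudogene copies. They took 92.8% to 97.7% of the counts of Eif3m and its copy, and 79.9% to 86.9% of those of Eif3e and its copies. Gm7658 was lower in vitro without overlap. A sum with the copies was not computed, so the total of eIF3 RNA is not settled by these values.

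**Figure D2:**
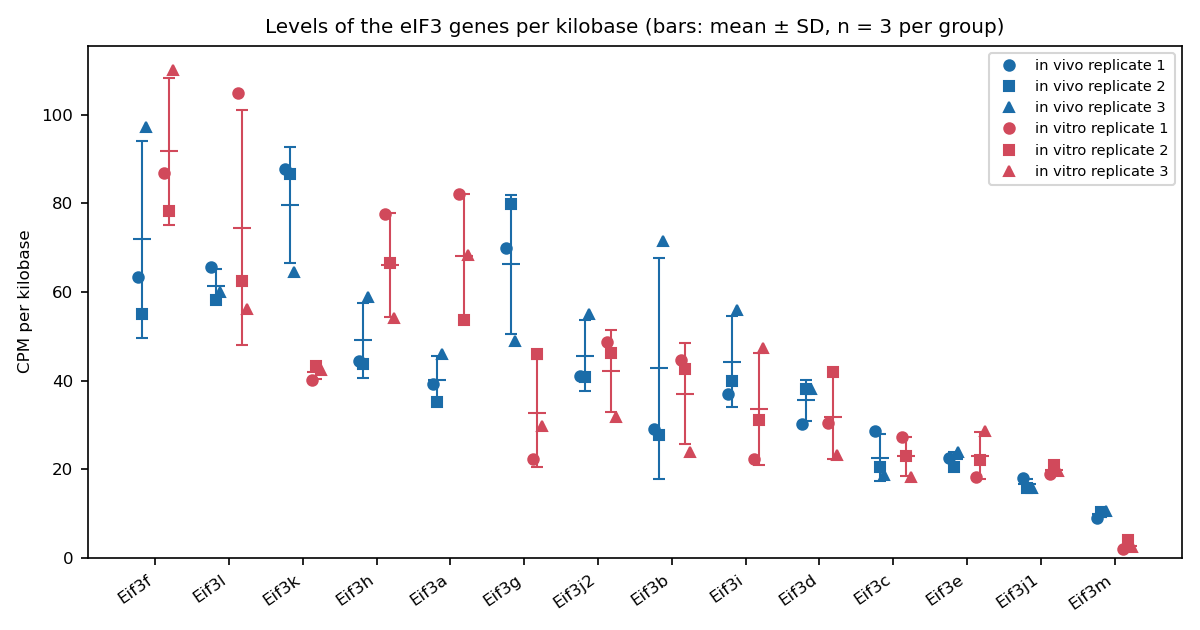
Levels of the 14 eIF3 genes in CPM per kilobase (y axis) in each library, ordered on the x axis by their mean over all libraries, with the mean ± SD of each group (n = 3). Eif3k, Eif3g and Eif3m lie lower in vitro without overlap, Eif3a and Eif3j1 lie higher, and the other 9 genes overlap. Counts assigned to pseudogene copies, such as those of Eif3m and Eif3e, are not included.

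The promoters of Eif2b1, Eif3k and Eif3a are shown as examples picked by hand. These genes had the smallest p in their role and direction and no near-identical copies, as did Eif2b5, Eif5, Eif4b, Eif4g3 and Eif5b. They are RefSeq sequences on GRCm38.p6, from 250 bases before to 50 bases after the gene start, all on the minus strand, at chr5:124579082-124579381, chr7:28981839-28982138 and chr19:60790644-60790943. Capitals mark matches to 4 strings searched on both strands: CACGTG (the E-box, which reads the same on both strands), CCGGAAG (the core of ETS sites), GCGCATGC (part of the NRF1 site) and AAGATGG (the core of YY1 sites).
Eif2b1: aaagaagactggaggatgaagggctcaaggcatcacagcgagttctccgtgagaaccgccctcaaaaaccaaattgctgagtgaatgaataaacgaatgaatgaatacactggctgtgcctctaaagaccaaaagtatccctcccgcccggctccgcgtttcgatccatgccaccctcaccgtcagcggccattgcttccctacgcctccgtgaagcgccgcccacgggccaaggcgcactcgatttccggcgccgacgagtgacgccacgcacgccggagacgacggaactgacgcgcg
Eif3k: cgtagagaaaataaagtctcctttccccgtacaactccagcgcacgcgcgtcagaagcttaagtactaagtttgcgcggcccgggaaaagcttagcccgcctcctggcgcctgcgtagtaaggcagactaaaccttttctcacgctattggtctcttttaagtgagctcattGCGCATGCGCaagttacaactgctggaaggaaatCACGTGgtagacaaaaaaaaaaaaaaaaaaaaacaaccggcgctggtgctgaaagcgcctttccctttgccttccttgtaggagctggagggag
Eif3a: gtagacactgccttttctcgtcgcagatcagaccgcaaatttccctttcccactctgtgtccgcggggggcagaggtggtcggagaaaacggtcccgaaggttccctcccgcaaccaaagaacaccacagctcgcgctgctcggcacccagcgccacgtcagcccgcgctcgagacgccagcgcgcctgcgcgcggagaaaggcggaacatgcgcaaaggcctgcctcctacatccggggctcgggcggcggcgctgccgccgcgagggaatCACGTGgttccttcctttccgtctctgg
Eif3k holds 1 E-box and a string of the NRF1 site that overlaps its own reverse complement, Eif3a holds 1 E-box, and none of the 4 strings is in the window of Eif2b1. Promoter sequences were matched for 38 of the 49 genes. An E-box was found in 8 of them (21.1%, against 7.2% of all 27025 promoters): Eif1b, Eif3a, Eif3f, Eif3k, Eif4a1, Eif4g1, Eif4h and Eif5a2. The ETS string was in 11 (28.9%, against 9.1%), the NRF1 string in 3 (7.9%, against 2.8%) and the YY1 string in 4 (10.5%, against 6.5%). Among the genes with an E-box whose groups did not overlap, Eif3a and Eif4h were higher and Eif3k was lower in vitro. A match is a description of these letters, and no binding was measured.

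Among the cap-binding genes, Eif4e1b, for a relative of eIF4E that is made in oocytes, was counted only in vivo. It had 16, 27 and 48 counts in in vivo replicates 1 to 3 and 0 counts in each in vitro library. Its near-identical copy Gm5705 was counted 5, 18 and 0 times in vivo, and never in vitro. With 3 counts taken as the limit for the 3 in vitro libraries together, Eif4e1b was at least 20.9-fold lower in vitro, a bound that ran from 10.3 to 25.5 with 1 library left out. The bound pools the libraries of each group and covers counting error in vitro only, not the spread among libraries. DESeq2 gave an adjusted p of 0.0270, which was 0.0529 to 0.255 with any 1 library left out, and edgeR gave 0.362, for a gene that entered the tests only through its in vivo counts. The oocyte markers summed to 2.35, 4.01 and 4.53 CPM in vivo, against in vitro levels of 0, 3.75 and 0 CPM, so in vitro replicate 2 had oocyte marker counts at the in vivo level and no Eif4e1b. The part of maternal RNA in this difference was not tested.

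Eif4e, the cap-binding protein itself, had 103, 114 and 64.1 CPM in vivo, compared with 167, 111 and 137 CPM in vitro (log2 fold change 0.56 ± 0.34, edgeR adjusted p = 0.613). Eif4e2, for the homologue that binds caps without recruiting eIF4G, had 98.8, 107 and 106 CPM in vivo, and in vitro it had 77.6, 91.7 and 63.4 CPM, lower in each in vitro library (log2 fold change -0.42 ± 0.30, edgeR adjusted p = 0.676). Within a library and per kilobase, Eif4e made up 39.2%, 39.8% and 27.2% of the pair in vivo and 57.1%, 42.8% and 57.3% in vitro. The groups did not overlap, and the exact permutation test gave p = 0.1, the smallest that 3 against 3 libraries allow, and 0.367 adjusted over 11 pairs. Eif4e has a near-identical copy, Gm7327, which took 43.6%, 39.9% and 5.01% of their summed counts in vivo and 10.3%, 24.1% and 16.6% in vitro. With the copy added the share of Eif4e was 53.4%, 52.4% and 28.2% in vivo and 59.8%, 49.7% and 61.6% in vitro, which overlapped (exact permutation p = 0.3), and its log2 fold change was 0.18 ± 0.41. Eif4enif1, whose protein carries eIF4E to the nucleus and to stored mRNAs, had 13.0 to 59.7 CPM in vivo and 17.9 to 41.5 CPM in vitro. Eif4e3 was below the filter, with 0 to 35 counts per library.

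Among the helicase and scaffold genes 6 were higher and 4 lower in vitro (5 and 5 with library totals). Eif4b and Eif4h, for the cofactors that help eIF4A unwind mRNA, were both higher without overlap with TMM scaling. Eif4b had 89.4, 78.2 and 82.2 CPM in vivo, against in vitro levels of 246, 124 and 113 CPM, with in vitro replicate 1 well above the other 2 (log2 fold change 0.95 ± 0.37, edgeR unadjusted p = 0.0302, adjusted p = 0.442). Eif4h had 144, 95.1 and 128 CPM in vivo, compared with 175, 183 and 150.1 CPM in vitro (log2 fold change 0.47 ± 0.30, edgeR adjusted p = 0.632).

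Eif4a1 and Eif4a2 both encode the helicase eIF4A. Eif4a1 had 173, 438 and 926 CPM in vivo, and in vitro it had 352, 442 and 482 CPM, so the in vivo libraries spanned the in vitro ones on both sides. Its log2 fold change of -0.27 ± 0.52 was 0.48 in limma-voom and 0.49 without in vivo replicate 3. Eif4a2 had 221, 218 and 159.8 CPM in vivo, against in vitro levels of 333, 302 and 226 CPM, higher without overlap with TMM scaling, although in vitro replicate 3 was close to the in vivo range (log2 fold change 0.52 ± 0.30, edgeR adjusted p = 0.592). With library totals its log2 fold change was 0.17 and the groups overlapped. Per kilobase, Eif4a1 made up 75.0% ± 17.0 (SD, n = 3) of the pair in vivo and 71.3% ± 7.10 in vitro, with an exact permutation p of 0.9 (0.99 adjusted over 11 pairs). This share leaves out the near-identical copies of Eif4a1. They took 73.1%, 52.9% and 31.7% of the counts of Eif4a1 and copies in vivo and 40.2%, 40.0% and 23.8% in vitro. A share with the copies added was not computed, so these values do not settle the balance of the pair. With the copies added, the log2 fold change of Eif4a1 was -0.58 ± 0.33, with overlap. The exons of Eif4a2 share up to 160 bases with Rfc4 on the other strand.

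Among the scaffolds, Eif4g3 had 17.3, 29.5 and 44.6 CPM in vivo, compared with 6.50, 13.3 and 13.3 CPM in vitro, lower without overlap (log2 fold change -1.46 ± 0.54, edgeR unadjusted p = 0.0240, adjusted p = 0.425). Eif4g1, the main scaffold, named after its values were seen, had 103, 98.8 and 200.3 CPM in vivo, and in vitro it had 189.9, 201 and 102 CPM, with overlap. Per kilobase, Eif4g1 made up 92.1%, 86.7% and 89.8% of Eif4g1 and Eif4g3 in vivo and 98.3%, 96.7% and 93.7% in vitro, without overlap (exact permutation p = 0.1, adjusted p = 0.367). Eif4g2 (DAP5), which lacks the site for eIF4E and acts in initiation without the cap, was the most abundant scaffold gene, with 311, 380.2 and 403 CPM in vivo, against in vitro levels of 390.1, 472 and 658 CPM, and these overlapped (log2 fold change 0.48 ± 0.30). Eif4a3, for the helicase of the exon junction complex, and Eif4a3l1 overlapped between groups.

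Of the 4 genes of subunit joining and later steps 3 were tested, and Eif5a and Eif6 were lower in vitro without overlap. Eif5a (chr11:69916712-69921958, minus strand), for the factor that carries the modified lysine hypusine and helps the ribosome through peptide bonds that form slowly, had 399, 364 and 144 CPM in vivo, compared with 46.0, 125 and 77.3 CPM in vitro. The groups did not overlap with TMM scaling, but in vivo replicate 3 was close to in vitro replicate 2, and with library totals they overlapped. The log2 fold change was -1.87 ± 0.49, with an edgeR unadjusted p of 0.00414 and adjusted p of 0.327, and adjusted p of 0.0335 in DESeq2 and 0.0422 in limma-voom. When 1 library was left out, DESeq2's adjusted p was 0.181 (in vivo replicate 1), 0.224 (in vivo replicate 2), 0.151 (in vitro replicate 1) and 0.0793 (in vitro replicate 3). Its exons share up to 345 bases with Gps2 on the other strand, which had 9 to 91 counts per library.

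Eif6, whose protein keeps the large subunit from joining too early, had 96.4, 116 and 148 CPM in vivo, and in vitro it had 65.7, 77.3 and 48.8 CPM, lower without overlap (log2 fold change -0.91 ± 0.33, edgeR unadjusted p = 0.0229, adjusted p = 0.425). Eif5b, the GTPase that joins the subunits, had 106, 119 and 145 CPM in vivo, against in vitro levels of 181, 157 and 129 CPM, and in vitro replicate 3 lay inside the in vivo range (log2 fold change 0.34 ± 0.30). Eif5a2, the second gene for eIF5A, was counted 19, 3 and 0 times in vivo, against 0, 0 and 46 times in vitro, too few to test. Eif2c5, annotated as a long non-coding RNA and an initiation factor only by its symbol, had 1 count in all libraries together.

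**Figure D3:**
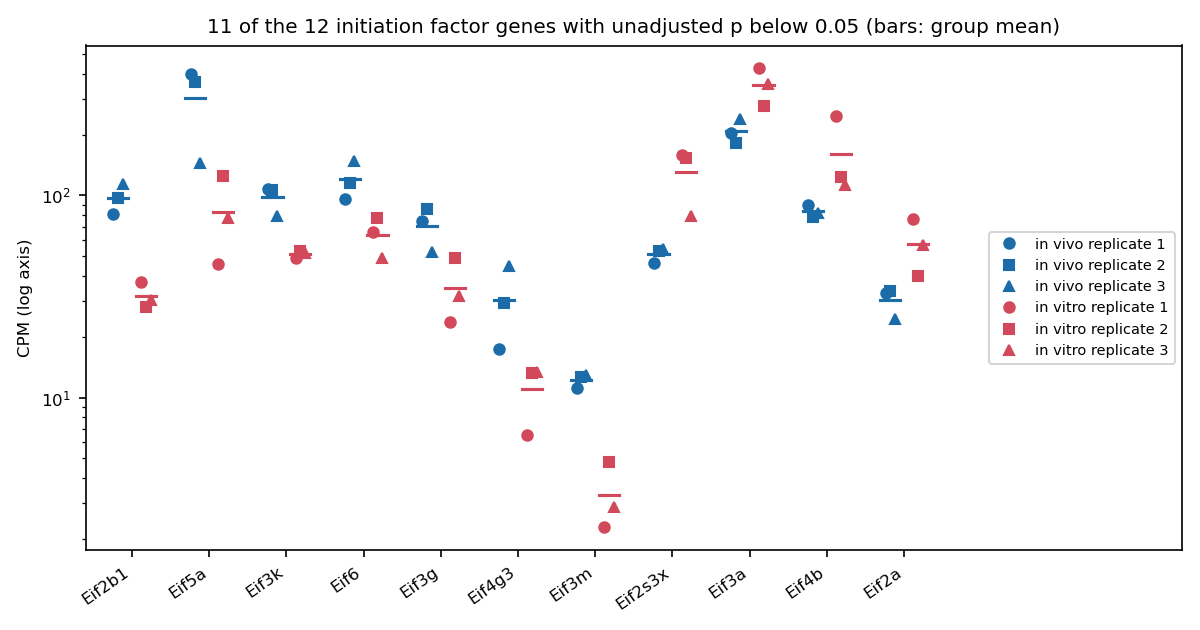
Level in CPM on a log axis (y) of 11 of the 12 initiation factor genes with an unadjusted edgeR p below 0.05 (x), in each library, with bars at the group means; Eif4e1b, at 0 in vitro, is left out. The groups of each of these genes do not overlap, and the gap is widest for Eif2b1 and Eif3m and narrowest for Eif5a, Eif3g and Eif3a.

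Many initiation factor genes have processed copies elsewhere in the genome that are nearly the same in sequence, and the counts were split between gene and copy. For 17 of the 49 genes at least 1 copy was found with at least 95% identity over 300 coding bases, and for 16 of them a copy was in the count table. Eif5a and its copy Eif5al3-ps, and Eif3m and its copy Gm7658, are shown because the table splits counts between them. The lines give 150 coding bases from GENCODE M21 transcripts on GRCm38, the first of the coding sequence for Eif5a (chr11:69919166-69919315, minus strand; copy at chr5:90132229-90132378, plus strand) and the last for Eif3m (chr2:104999724-105000273, minus strand, across 2 exons; copy at chr1:21511936-21512085, minus strand). Capitals mark the bases at which gene and copy differ.
Eif5a: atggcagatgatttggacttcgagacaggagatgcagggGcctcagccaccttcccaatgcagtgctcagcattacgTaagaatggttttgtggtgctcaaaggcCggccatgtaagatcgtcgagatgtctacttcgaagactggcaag
Eif5al3-ps: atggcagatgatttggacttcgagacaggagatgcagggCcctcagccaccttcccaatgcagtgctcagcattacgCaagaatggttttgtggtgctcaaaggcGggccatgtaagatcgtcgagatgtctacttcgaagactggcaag
Eif3m: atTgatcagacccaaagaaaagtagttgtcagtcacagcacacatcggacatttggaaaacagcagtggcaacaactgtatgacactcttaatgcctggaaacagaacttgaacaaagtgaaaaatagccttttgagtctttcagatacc
Gm7658: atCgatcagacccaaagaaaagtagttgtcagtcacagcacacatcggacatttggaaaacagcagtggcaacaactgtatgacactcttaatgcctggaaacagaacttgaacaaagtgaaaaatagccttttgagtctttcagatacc
Over these stretches Eif5a and its copy differ at 3 bases and Eif3m and its copy at 1 base, and over the aligned coding sequence the pairs are 97.2% and 98.5% identical. A read that covers none of the differing bases fits both places equally well.

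The copies took 40.0%, 43.5% and 31.0% of the summed counts of initiation factor genes and copies in vivo and 28.4%, 32.1% and 24.9% in vitro. In vivo replicates 1 and 2 were highest, and they are also the libraries with the least ribosomal RNA. Whether the copies are transcribed or only receive reads of the parent gene was not tested. Gm7658 held 93.9%, 94.4% and 92.8% of the summed counts of Eif3m and copy in vivo and 97.7%, 95.1% and 97.5% in vitro. Eif3m itself, a core eIF3 subunit named after its values were seen, had only 11.1, 12.6 and 12.9 CPM in vivo, compared with 2.28, 4.78 and 2.88 CPM in vitro (log2 fold change -1.87 ± 0.70, edgeR unadjusted p = 0.0244, adjusted p = 0.425). With the copy added it had 184, 223 and 180.1 CPM in vivo, and in vitro it had 99.8, 98.2 and 113 CPM, still lower without overlap but with a smaller log2 fold change (-0.92 ± 0.28, edgeR unadjusted p = 0.00990, adjusted p = 0.378).

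Adding copies to their gene was an alternative chosen after seeing the data. It left the number of edgeR calls at 0 (0% of all genes), and DESeq2 then called 3 genes (Eif2b1, Eif4e1b and Eif5a, beside 2.8% of all genes). Eif2s3x, whose copy Gm2223 is identical over 1347 coding bases, had 108, 127 and 114 CPM in vivo, against in vitro levels of 278, 294 and 143 CPM in sum, higher without overlap, with a log2 fold change of 1.03 ± 0.35 and a DESeq2 adjusted p of 0.159. Eif5a with its copy had 951, 898 and 236 CPM in vivo, compared with 95.4, 239 and 137 CPM in vitro, so in vivo replicate 3 now lay inside the in vitro range (log2 fold change -2.14 ± 0.56, DESeq2 adjusted p = 0.0223). Eif2s1 with its 2 copies had 314, 345 and 191 CPM in vivo, and in vitro it had 109.9, 126 and 161 CPM, without the overlap seen for the gene alone (log2 fold change -1.10 ± 0.33, edgeR unadjusted p = 0.00926, adjusted p = 0.374). Eif2s2 with Gm9892 (99.5% identical over 992 bases) had a log2 fold change of 0.02 ± 0.33. Eif3j1 and Eif3j2, identical over 781 coding bases, had a log2 fold change of -0.0032 ± 0.29 in sum, so the direction given above for Eif3j1 was not seen in the sum.

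**Figure D4:**
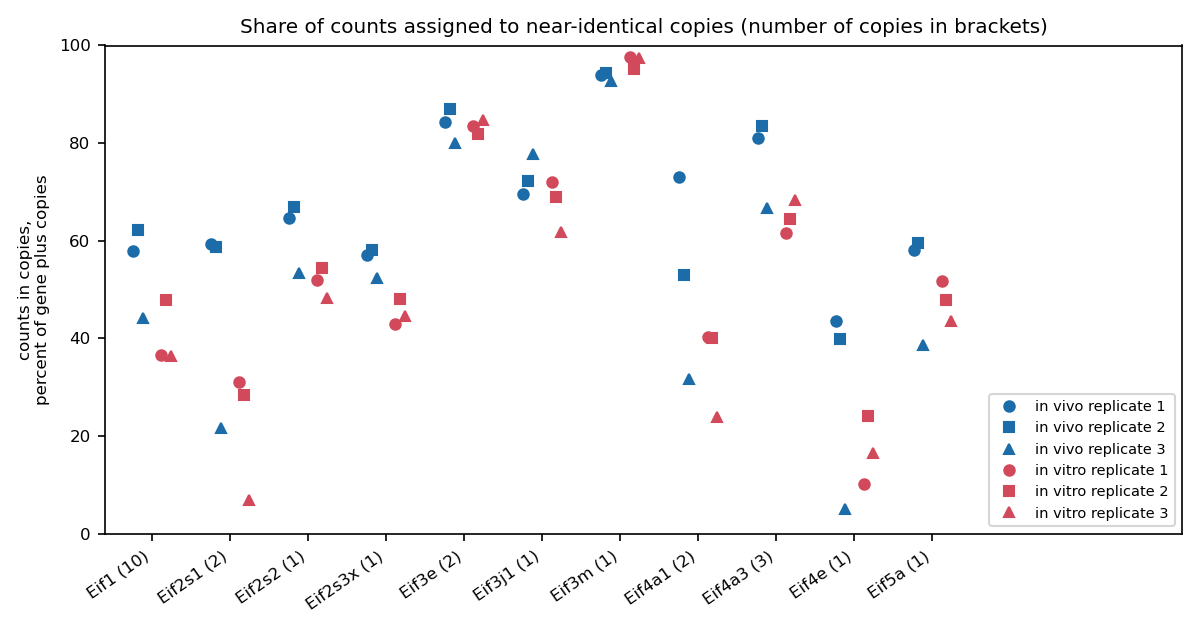
Percent of the counts of a gene plus its near-identical copies that were assigned to the copies (y axis), in each library, for 11 initiation factor genes (x axis, number of copies in brackets). In vivo replicates 1 and 2 lie highest for Eif1, Eif2s1, Eif2s2, Eif2s3x, Eif4a1, Eif4a3, Eif4e and Eif5a, and Gm7658 takes 92.8% to 97.7% of the sum with Eif3m.

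Eif4a3, Eif4a3l1 and Eif4a3l2 are near-identical copies of each other (96.2% to 98.5% identity over 1233 coding bases) and share the copy Gm5576. Their sum with that copy had a log2 fold change of -0.47 ± 0.38, with overlap, against 0.30 for Eif4a3 alone. Eif4a3l2, annotated as a pseudogene and named after its values were seen, had 86.7, 70.1 and 7.98 CPM in vivo, against in vitro levels of 15.6, 22.3 and 21.2 CPM, so in vivo replicate 3 was below all in vitro libraries while the other 2 were above them. The plot of related gene pairs shows the same split, with Eif4a3l1 at 16.5% and 17.8% of the pair in in vivo replicates 1 and 2 and at 66.9% in in vivo replicate 3. Of the 11 pairs, Eif4e with Eif4e2 and Eif4g1 with Eif4g3 had groups without overlap, each with an exact permutation p of 0.1. The pair of Eif4e with Eif4e1b only restates the 0 counts of Eif4e1b in vitro. The other 8 pairs had exact permutation p from 0.2 to 1.

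**Figure D5:**
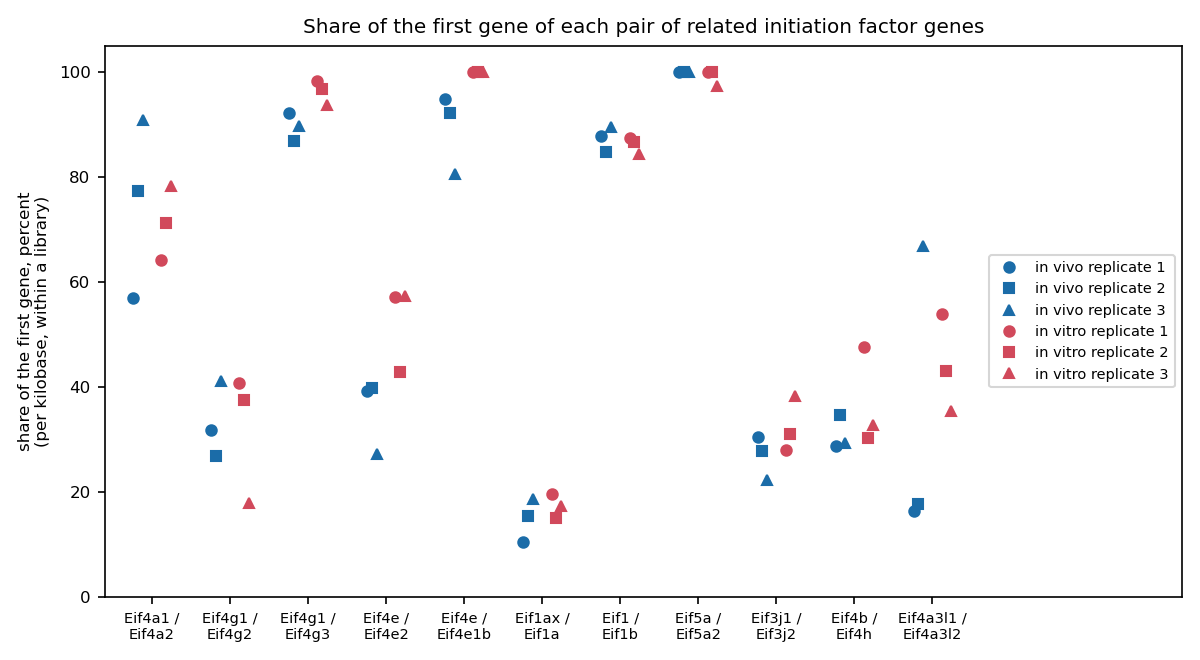
Share of the first gene in each of 11 pairs of related initiation factor genes, in percent of the summed levels per kilobase within a library (y axis), for the 6 libraries. The share of Eif4e against Eif4e2 and that of Eif4g1 against Eif4g3 are higher in each in vitro library, and Eif4a1 against Eif4a2 spreads from 57.0% to 90.8% within the in vivo group.

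Of 36 genes on a list of regulators and partners of initiation 33 were tested, of which 23 were higher and 10 lower, with a median log2 fold change of 0.22 against -0.01 for all genes, and 0 passed edgeR's test. With library totals 16 were higher and 17 lower, with a median of -0.034 against -0.31 for all genes. At an unadjusted p below 0.05, 5 were higher and 1 lower, beside 5.11% and 5.08% of all genes. Abce1, whose protein splits ribosomes after termination so that they can initiate again, had 81.0, 78.6 and 51.3 CPM in vivo, compared with 205, 144 and 167 CPM in vitro, without overlap (log2 fold change 1.29 ± 0.33, adjusted p = 0.321 in edgeR and 0.0373 in DESeq2). Its DESeq2 adjusted p was 0.0360 without in vitro replicate 2 and 0.0508 to 0.190 without any other library. Pdcd4, an inhibitor of the helicase eIF4A, had 37.8, 30.5 and 61.4 CPM in vivo, and in vitro it had 202, 59.9 and 354 CPM, with in vitro replicate 2 inside the in vivo range (log2 fold change 2.24 ± 0.60, adjusted p = 0.327 in edgeR and 0.0251 in DESeq2). Its DESeq2 adjusted p was 0.107 and 0.182 without in vivo replicate 1 or 2 and 0.10 and 0.156 without in vitro replicate 1 or 3, and edgeR without a filter gave an adjusted p of 0.000108. Eif4ebp1, which holds eIF4E away from eIF4G, had 237, 384 and 219.9 CPM in vivo, against in vitro levels of 138, 123 and 154 CPM, lower without overlap (log2 fold change -1.02 ± 0.32, edgeR adjusted p = 0.393). Bzw2, a mimic of eIF5, had 36.6, 30.1 and 89.9 CPM in vivo, compared with 29.7, 27.7 and 25.2 CPM in vitro, lower without overlap (log2 fold change -0.92 ± 0.47). In vivo replicate 3 was far above the rest, and the log2 fold change was -0.27 without it and -0.32 in limma-voom.

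Of 18 elongation and release factor genes 17 were tested, 11 higher and 6 lower in vitro (8 and 9 with library totals), and none had an edgeR p below 0.05 before or after adjustment. Eef2k, the kinase that inhibits elongation factor eEF2, had 4.31, 2.89 and 3.24 CPM in vivo, and in vitro it had 14.4, 5.07 and 11.6 CPM (log2 fold change 1.57 ± 0.77). Gspt1, the release factor eRF3, had 61.0 to 76.1 CPM in vivo and 67.1 to 187 CPM in vitro, with overlap. Dhps, which makes the hypusine of eIF5A, had 14.9, 18.3 and 12.2 CPM in vivo, against in vitro levels of 10.2, 6.91 and 4.58 CPM, lower without overlap (log2 fold change -1.07 ± 0.60, edgeR adjusted p = 0.587). Dohh, the enzyme that completes hypusine, named after its values were seen, had 27.1 to 35.4 CPM in vivo and 12.1 to 28.8 CPM in vitro, with overlap (log2 fold change -0.40 ± 0.46). Mtif2, the mitochondrial initiation factor, had 17.6 to 22.2 CPM in vivo and 11.8 to 13.2 CPM in vitro, lower without overlap with TMM scaling but not with library totals (log2 fold change -0.69 ± 0.47).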

How the data were processed

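RNA-seq libraries of 3 in vivo and 3 in vitro mouse blastocyst samples were prepared from total RNA, extracted with a kit for small inputs, using a transposase library kit that leaves strand unmarked, per the labels' protocols. The authors deposited raw read counts per gene in 1 table of 49993 genes. Its layout is that of featureCounts, and the sources used here give neither counter nor aligner nor strand setting. FastQC 0.11.2, DESeq2 and the build GRCm39 appear in the submitters' processing notes, but the coordinates of 49 of the 49 genes equal RefSeq GRCm38.p6, so positions are on GRCm38.

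The counts were compared with edgeR 4.0.16 (R 4.3.3) by its quasi-likelihood test (two-sided, legacy form, robust) after edgeR's filter on low counts and TMM scaling. Benjamini-Hochberg adjustment ran over 14301 genes, with a threshold of 0.05. Standard errors come from the F statistic. DESeq2 1.42.0, limma 3.58.1 (voom with quality weights), other scalings and filters, a replicate block, removal of Rn18s-rs5 and each library left out were alternatives. edgeR, DESeq2 and limma-voom were each tested on simulated data first. CPM uses TMM-scaled totals. Levels per kilobase use the exon length on the primary chromosome, since Eif5a, Eif3i and Eif2c5 also lie on alternate scaffolds and have inflated deposited lengths. Shares of related genes were compared by exact permutation tests in scipy 1.17.1. Near-identical copies were found with blastn 2.17.0, at 95% identity over at least 300 coding bases. Adding them was chosen after seeing the data. Totals of 6918288 to 17643429 counts set the precision: 3 counts, the limit that a count of 0 allows, correspond to 0.216 to 0.527 CPM (counting error only).

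Values in every library are given for genes with at least 10 CPM on average and groups apart. In each role they are also given for the smallest p in each direction and the 2 highest levels per kilobase, and always for Eif2s3x, Eif1ax, Eif4e1b, Eif4g2 and Eif5a2. The 2 smallest p in each direction were named from the partner lists. The genes and lists were chosen with earlier results of these data known. Protein identity between related genes had been planned and was not computed.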

Additional observations from a re-analysis of the deposited data

How the results depend on the processing

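The number of initiation factor genes called was 0 in edgeR, 4 in DESeq2, 1 in limma-voom and 2 in edgeR without a filter, and 0 in every other edgeR fit run. With edgeR's unadjusted p, 4 genes were higher: 1 with library totals, 2 without a filter and 1 to 4 with 1 library left out. The 8 lower genes became 3 to 8 with 1 library left out and 6 to 9 under the other alternatives. Over all genes tested, 731 were higher and 727 lower at that p, and 260 and 942 with library totals. Genes higher without overlap numbered 7 (9.27% of all genes), 2 with library totals (5.16% of all genes) and 7 to 13 with 1 library left out. The median log2 fold change was -0.052, and -0.055 to 0.23 with 1 library left out. With library totals it was -0.35 (-0.31 over all genes), and in limma-voom 0.11 (-0.089 over all genes). DESeq2's 4 calls ranged from 0 to 4 with 1 library left out, while its calls over all genes, 459 with every library, ranged from 152 to 907.

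Directions turned for 6 genes named by the rule. With library totals the log2 fold change was -0.063 for Eif1, -0.026 for Eif1ax, -0.066 for Eif3j1 and -0.068 for Eif3l, where that scaling alone moves the median of all genes by -0.31. Relative to that median these 4 genes lay 0.24 to 0.29 higher. With copies added, chosen after seeing the data, it was -0.15 for Eif1 and -0.0032 for Eif3j1. Eif4a1 was at 0.48 in limma-voom. With 1 library left out Eif1a ran from -0.19 to 0.061, Eif3l from -0.040 to 0.45 and Eif4a1 from -0.69 to 0.49. Differences in share, in percentage points, ran from -12.8 to 4.10 for Eif4a1 of Eif4a1 and Eif4a2, from -5.55 to 5.80 for Eif4g1 of Eif4g1 and Eif4g2 and from -1.29 to 0.0517 for Eif5a of Eif5a and Eif5a2. The cause was not tested.

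No pairing of the libraries by replicate number was visible: deviations of same-numbered libraries correlated at -0.0986, 0.0960 and -0.0443. Those of differently numbered libraries correlated at -0.0903 to 0.116. With 3 libraries per group these values cannot settle whether the numbers pair them. With the replicate block 0 genes were called, 2 were higher at unadjusted p below 0.05, and Eif4a1 was at 0.031.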
